A study of Bos taurus with 17 samples.

Results

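The comparison described here is that of Normande cow's milk at 3 years of age with Normande milk at 2 years, over all microRNA entries of the deposited count table. It takes the 8 Normande libraries, N1 to N3 from 2-year-old cows and N4 to N8 from 3-year-old cows, of the 17 libraries of the series; the other 9 are from Holstein cows. All 8 Normande cows were healthy and in their first lactation, about 2 months after calving, and came from a single experimental farm with a common ration. Whole milk, not separated into fat, cells or vesicles, was taken once per cow at a morning milking, and small RNA of each cow gave 1 library. Milk was collected at the same time for all cows of an age, so age and time of collection cannot be told apart, nor can age and the age at first calving. Daily milk yield in the study was also lower in the 2-year-old than in the 3-year-old Normande cows. The study itself states that its age differences cannot be separated from this difference in yield. With 3 and 5 cows, every p-value below rests on the spread between individual animals.

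MicroRNAs are short RNAs that guide a silencing complex to partly complementary sites in messenger RNAs, mostly through the bases near their 5′ end (the seed), and thereby lower the output of those messengers. In milk they are carried in fat globules, in vesicles, in shed epithelial and immune cells and on proteins, and a few mammary microRNAs such as miR-148a and miR-30a make up much of the total in several mammals. In a bulk sample such as this, a lower level of a microRNA of some cell type can mean fewer of these cells or less of this RNA in each, and these cannot be told apart.

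The 8 libraries held 73345114 counted reads, from 867772 in N3 to 18776254 in N5. By the study's read counts, a smaller share of the cleaned reads mapped to the genome in every younger cow than in every older cow. This mapped share was lowest in N1. Age and mapped share therefore cannot be told apart here, and the part of mapped share in the differences below was not tested. Between 864 and 1529 entries were detected per library; 2030 had a read in at least 1 library (1135 annotated in a microRNA database and 895 predicted from the reads by the authors) and 708 had a read in all 8. N3 was the shallowest library, with 1 read worth 1.15 reads per 1000000 counted reads (RPM), against 0.0533 RPM in N5. Levels below are RPM after TMM scaling, which aligns the bulk of the entries between libraries; its factors ran from 0.828 in N6 to 1.17 in N1. After a minimum on the normalized count, 383 entries were tested, of which 265 were annotated (195 of them bovine miRBase names) and 118 predicted.

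With edgeR's quasi-likelihood test, 1 of the 383 entries had a Benjamini-Hochberg adjusted p under 0.05 (0.261% of those tested). It was a predicted entry that was lower at 3 years, and none was higher. At an unadjusted p under 0.05, 33 entries were higher (8.62%) and 55 lower (14.4%), 88 in all (23% of those tested). The test that the study itself names, voom with limma, called 11 entries higher (2.87%) and 28 lower (7.31%) on the same table, and DESeq2 called 12 higher (3.13%) and 35 lower (9.14%); 32 entries were called by both voom and DESeq2. Of the 50 entries with an edgeR adjusted p under 0.1, 36 were called by voom. The tools thus differed in the side of the threshold on which the entries fell, and both adjusted p-values are given where they matter. Over all 383 entries the median log2 fold change (3 years minus 2 years, here and below) was 0.03.

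The direction of the difference went with the kind of entry. Of the 265 annotated entries, 187 had a positive log2 fold change (median 0.26), and of the 118 predicted entries, 106 had a negative one (median −0.67). An entry was tested when 1 library passed the count minimum, so these counts hold entries that were high in a single cow, among them predicted entries high in N1 alone. At an unadjusted p under 0.05, the annotated entries gave 33 higher and 16 lower and the predicted entries 0 higher and 39 lower. All 11 entries called higher by voom were annotated, whereas 22 of the 28 called lower were predicted. In TMM-normalized levels, the 5 cows of 3 years lay above all 3 cows of 2 years for 31 entries (8.09% of those tested), all of them annotated. They lay below them for 13 (3.39%), of which 9 were predicted. The sign of the annotated entries depended on the scaling: with plain total counts 129 of the 265 were positive and their median was −0.01, while the median of all entries went to −0.23 and that of the predicted entries to −0.92. The tested members of the families below are bovine miRBase entries, and of the 195 of these tested 156 were positive (median 0.36), 31 were higher at an unadjusted p under 0.05 and 10 were called higher by voom. With total counts 110 of the 195 were positive (median 0.09). A family's share of positive members is to be read against these counts.

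**Figure D1:**
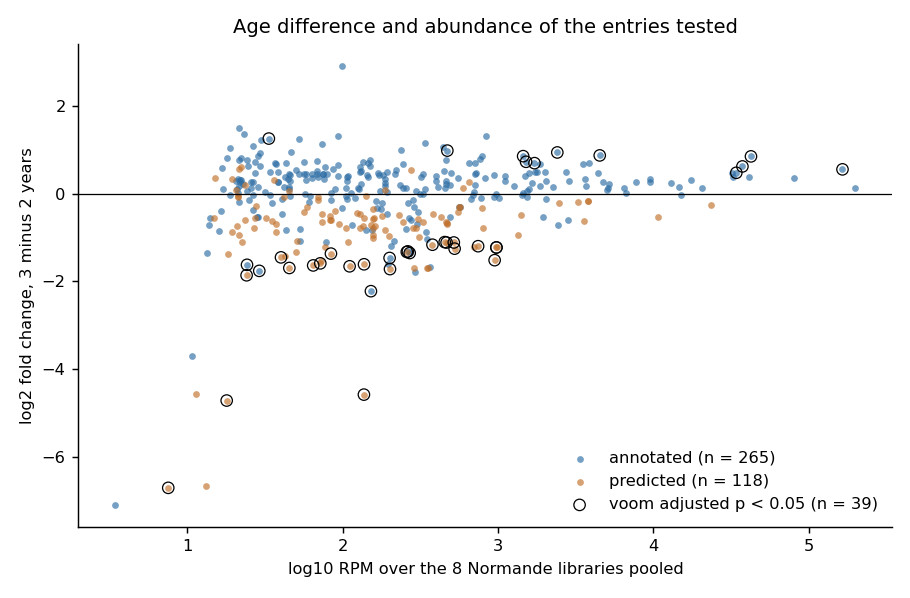
Log2 fold change (3 years minus 2 years, edgeR) of the 383 entries tested in Normande milk against log10 of their RPM over the pooled libraries, with annotated entries in blue, predicted entries in orange and the 39 entries called by voom circled. The predicted entries lie mostly below the line at 0, and the circled entries above it are all annotated.

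The most abundant microRNA, miR-148a-3p, which is known to act on DNA methyltransferase 1 in human cells, did not pass the test in either direction. Its levels were 180299, 191273 and 224600 RPM in the 2-year-old cows and 228149, 166149, 254312, 197375 and 243208 RPM in the 3-year-old cows. The ranges overlapped, with a log2 fold change of 0.13 ± 0.15 (SE; edgeR adjusted p = 0.554). The 16 entries above 10000 RPM together took 76.2% ± 3.88 (SD, n = 3) of reads at 2 years and 79.5% ± 0.677 (SD, n = 5) at 3 years (exact permutation test, two-sided, p = 0.179, adjusted over 6 measures 0.268). N1 had the lowest share, 72.1%, and the other 7 cows lay between 76.7% and 80.4%. Of these 16 entries, 13 had a positive log2 fold change and 4 were called higher by voom, and with total counts 9 were positive.

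The second most abundant, miR-30a-5p, had 104432, 119656 and 152914 RPM at 2 years and 160911, 202662, 193195, 161924 and 205203 RPM at 3 years. With TMM scaling each 3-year-old cow was above each 2-year-old cow, which total counts did not keep. The log2 fold change was 0.56 ± 0.15 (SE; edgeR adjusted p = 0.0613, voom adjusted p = 0.0455), and 0.30 with total counts (edgeR adjusted p = 0.154). All 6 miR-30 members tested had a positive value (median 0.31), from 0.02 for miR-30f-5p to 0.70 for miR-30e-5p, and miR-30a-5p alone was called by voom. This median was below that of all bovine miRBase entries, 0.36, and with total counts 3 of the 6 were positive (median 0.02). Of the other major microRNAs, miR-22-3p had 63980 to 73840 RPM at 2 years and 77968 to 97235 RPM at 3 years, with no overlap (log2 fold change 0.36, edgeR adjusted p = 0.0908, voom adjusted p = 0.0882). With total counts its ages overlapped, and the log2 fold change was 0.09. For miR-21-5p, which is abundant in many epithelia, the levels were 22991 to 31753 RPM and 30221 to 51213 RPM, N7 being the 3-year-old cow that fell within the younger range (log2 fold change 0.62, edgeR adjusted p = 0.0807, voom adjusted p = 0.0486). miR-186-5p separated the ages as well, at 24885 to 26895 RPM and 28369 to 48345 RPM, without passing either test (log2 fold change 0.48, adjusted p = 0.133 by edgeR and 0.155 by voom). Its ages also overlapped with total counts, at a log2 fold change of 0.20. Among the 10 most abundant entries, miR-26a-5p, miR-181a-5p and the predicted bta-chr10_2883_mt-5p, overlapped between ages, with log2 fold changes of 0.38, 0.37 and −0.26 and edgeR adjusted p-values of 0.258, 0.280 and 0.405.

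The higher entry with the smallest p was miR-101-3p, known in human cells as a repressor of the histone methyltransferase EZH2. Its levels were 1217, 1443 and 1744 RPM at 2 years and 2534, 3283, 2852, 2604 and 2822 RPM at 3 years. The lowest 3-year-old cow stood well above the highest 2-year-old cow, and the log2 fold change was 0.94 ± 0.21 (SE; edgeR adjusted p = 0.0613, voom adjusted p = 0.0425). miR-32-5p, which has the seed of the miR-25 and miR-92 group and whose bovine gene lies within TMEM245, was measured at 279, 295 and 231 RPM against 561, 677, 401, 473 and 543 RPM. These ages also did not overlap with TMM scaling, and the log2 fold change was 0.98 ± 0.26 (SE; edgeR adjusted p = 0.0613, voom adjusted p = 0.0455). With total counts the log2 fold change was 0.69 for miR-101-3p (edgeR adjusted p = 0.0729). For miR-32-5p it was 0.72 (edgeR adjusted p = 0.169), and its ages overlapped slightly. Of its seed relatives, miR-92a-3p had a log2 fold change of −0.04, miR-92b-3p of 0.13, miR-25-3p of 0.23 and miR-363-3p of 0.76, none past the test. Of these, miR-363-3p had no overlap between the ages with TMM scaling (at most 116 RPM at 2 years, at least 125 RPM at 3 years, edgeR adjusted p = 0.133).

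**Figure D2:**
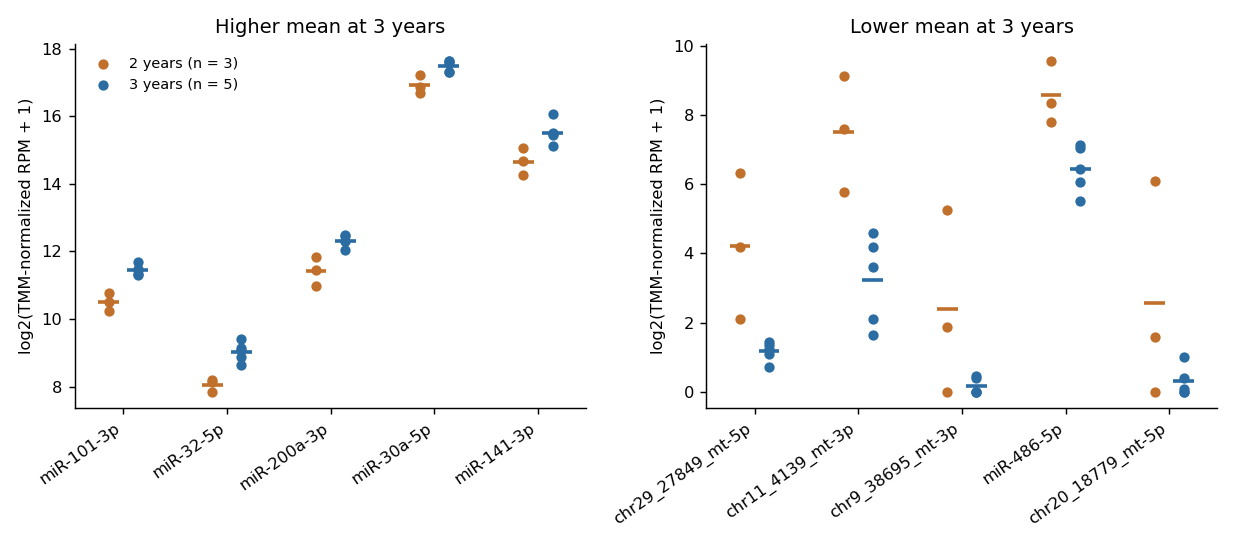
TMM-normalized RPM on a log2(value + 1) scale for the 5 entries with the smallest p in each direction, with a point per cow (2 years in orange, n = 3; 3 years in blue, n = 5) and a bar at the mean. The groups are apart for all 5 entries on the left, from miR-101-3p to miR-141-3p, and on the right for 3 of 5, where the 2-year-old cows are widely spread.

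The miR-200 family marks epithelial cells and is known in mouse and human cells for holding back ZEB1 and ZEB2, the repressors of E-cadherin. Its member miR-141-3p, the fourth most abundant entry, was at 19504, 26146 and 33993 RPM at 2 years and 46394, 67913, 35736, 45069 and 44554 RPM at 3 years. N6 was only just above N3, and the ages did not overlap (log2 fold change 0.85 ± 0.24, SE; edgeR adjusted p = 0.0613, voom adjusted p = 0.0455). miR-200a-3p, which shares the seed of miR-141, was at 2794, 3626 and 2006 RPM against 5086, 5584, 4233, 5774 and 5078 RPM. Here too every older cow was above every younger cow (log2 fold change 0.87 ± 0.23, SE; edgeR adjusted p = 0.0613, voom adjusted p = 0.0455). The other 3 members, miR-200b-3p, miR-200c-3p and miR-429-3p, which share a different seed, had log2 fold changes of 0.69, 0.28 and 0.49 and no call by either test, and only miR-429-3p had no overlap between the ages. In the RefSeq annotation (assembly ARS-UCD2.0, used for names and neighbours only) MIR200A lies beside MIR200B and MIR429, and MIR141 beside MIR200C. With total counts all 5 members of the family were still positive (median 0.40). miR-141-3p was then at 0.62 and miR-200a-3p at 0.61, but the ages overlapped for both. All 7 epithelial markers had a positive value (median 0.49; 5 of 7 with total counts), but miR-148a-3p and miR-375-3p lay near 0, at 0.13 and 0.02.

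The miR-29 family, known in human and mouse cells for acting on collagen and DNA methyltransferase 3 messengers, had 4 members tested, all positive (median 0.58; 3 of 4 with total counts). miR-29a-3p was at 1064, 1385 and 1165 RPM at 2 years and 1930, 2107, 1931, 1955 and 1850 RPM at 3 years. The older cows were close to each other and all above the younger ones (log2 fold change 0.70 ± 0.20, SE; edgeR adjusted p = 0.0720, voom adjusted p = 0.0455). With total counts the log2 fold change was 0.44 (edgeR adjusted p = 0.210). miR-29c-3p ranged from 641 to 1136 RPM and from 1410 to 1982 RPM, again with no overlap (log2 fold change 0.86, edgeR adjusted p = 0.0807, voom adjusted p = 0.0486). The less abundant miR-29b-3p and miR-29d-5p had 0.45 and 0.27 and overlapped.

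Among microRNAs linked to lipid metabolism, 10 of the 12 tested had a positive value (median 0.47), a share near the 156 of 195 of bovine miRBase entries, and with total counts 8 were positive. Voom called 3 of the 12 higher, against 10 of those 195: miR-21-5p, miR-27b-3p and miR-33b-5p. These 3 are among the 10, and the list was chosen with earlier results of these data known. The counts are therefore no test of the list. miR-27b-3p, which acts on PPARG in mouse and human adipocytes, was at 22239, 28176 and 33008 RPM at 2 years and 43900, 39775, 36862, 34669 and 38501 RPM at 3 years. With TMM scaling the ages were apart, N7 being nearest to the younger cows (log2 fold change 0.48 ± 0.16, SE; edgeR adjusted p = 0.0908, voom adjusted p = 0.0486). With total counts they overlapped, and the log2 fold change was 0.22. miR-33b-5p, whose bovine gene lies within SREBF1, the gene of a master regulator of lipid synthesis, and which in human cells represses the cholesterol exporter ABCA1, was a rare species at 8.91, 14.9 and 26.2 RPM against 36.0, 66.1, 28.5, 24.4 and 33.7 RPM. N3 and N7 crossed, and N5 stood far above the rest (log2 fold change 1.26 ± 0.47, SE; edgeR adjusted p = 0.133, voom adjusted p = 0.0486). The 2 negative members were miR-378-5p (−0.60), with 899 to 5613 RPM at 2 years and 1769 to 2840 RPM at 3 years, and miR-221-3p (−0.14), with 55.1 to 407 RPM and 99.2 to 408 RPM; neither passed the test. The paralogue miR-27a-3p had the same value as miR-27b-3p, 0.48, with overlapping levels (edgeR adjusted p = 0.245).

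The growth-linked miR-17/92 clusters had 10 of 11 tested members with a positive value (median 0.65) and 6 higher at an unadjusted p under 0.05, beside 156 of 195 positive and 31 of 195 higher among bovine miRBase entries. With total counts 8 of the 11 were positive (median 0.36), and neither edgeR nor voom called any. Their most abundant member, miR-92a-3p, was the exception at 14397 to 18705 RPM and 10235 to 21746 RPM. The miR-15/16 family, known for acting on cell cycle messengers, had 4 of 4 positive, with total counts as well (median 0.69, and 0.41 with total counts), and 3 with an unadjusted p under 0.05. Its most abundant member, miR-16b-5p, ranged from 1109 to 1379 RPM at 2 years and from 1308 to 2921 RPM at 3 years, with an overlap (log2 fold change 0.68 ± 0.28, SE; edgeR adjusted p = 0.170, voom adjusted p = 0.164). The let-7 family, best known for its part in developmental timing, had values between −0.09 and 0.57 in its 10 members and no unadjusted p under 0.05, let-7a-5p being at 0.13; 8 of the 10 were positive, and 2 with total counts. The miR-181 family was positive in 3 of 3 (median 0.37), the miR-148 family in 3 of 3 (median 0.13) and the miR-183 cluster in 2 of 3 (median 0.14), with no member called by either tool. These medians were close to or below the 0.36 of all bovine miRBase entries, and with total counts 2, 1 and 1 of the 3 members were positive. The miR-221 and miR-222 pair had −0.14 and −0.33 with all 8 cows and positive values in both without N1.

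**Figure D3:**
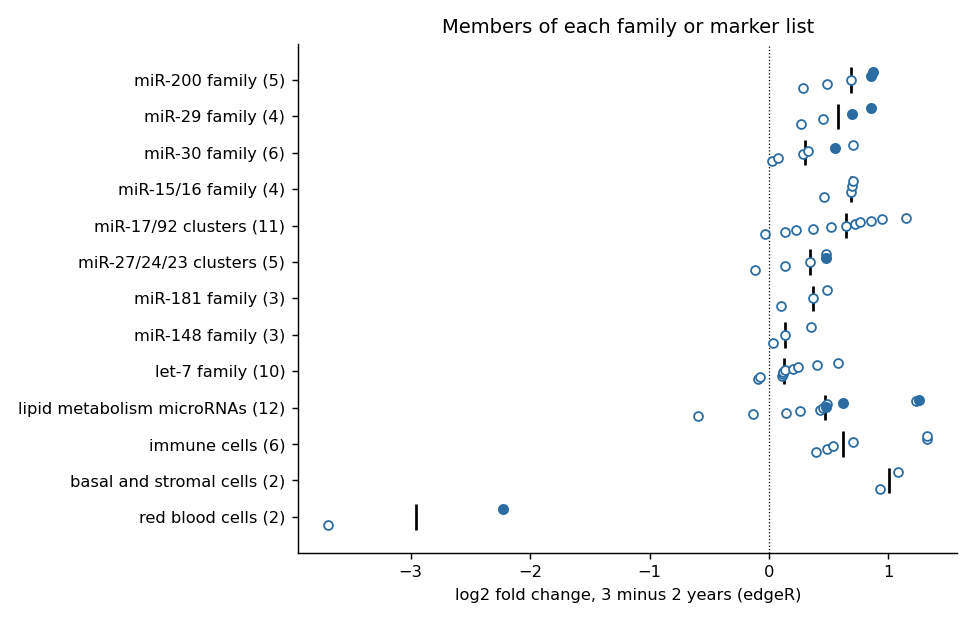
Log2 fold change (3 years minus 2 years, edgeR) of each tested member of 13 families or marker lists, with the number of members in parentheses, filled points for the entries that voom called and a bar at the list's median. With TMM scaling the miR-200, miR-29, miR-30, miR-15/16, miR-181 and miR-148 families lie wholly to the right of 0. So do the immune and the basal and stromal lists, and 156 of the 195 bovine miRBase entries tested were positive. With total counts 3 of 6 miR-30, 3 of 4 miR-29, 2 of 3 miR-181 and 1 of 3 miR-148 members were positive. The let-7 family lies around 0, and the 2 red blood cell microRNAs lie to the left at −3.69 and −2.22.

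Both arms of a hairpin come from 1 precursor but are counted as separate entries. For 12 hairpins both arms were tested, and 11 of these had the same sign in both arms, with a median absolute difference of 0.39 in log2 fold change. That sign was positive in all 11, and 156 of the 195 bovine miRBase entries tested were positive as well. The count is to be read against that share and is no test of the arms. For miR-17, for example, the values were 0.95 for the 3p arm and 0.52 for the 5p arm, and for miR-142 they were 1.32 and 0.48. The exception was miR-423, at −0.03 and 0.33.

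Red blood cell microRNAs were among the lower entries. miR-486-5p, which is abundant in red cells and whose bovine gene lies within ANK1, the gene of a red cell membrane protein, was at 324, 225 and 769 RPM at 2 years and 133, 66.3, 139, 86.0 and 44.6 RPM at 3 years. All older cows were below all younger cows (log2 fold change −2.22 ± 0.47, SE; edgeR adjusted p = 0.0613, voom adjusted p = 0.0455, DESeq2 adjusted p = 0.000558). miR-451-5p, the other red cell microRNA, was at 37.3, 2.12 and 95.1 RPM and at 1.25, 3.33, 6.92, 3.43 and 1.73 RPM. N2 lay among the older cows, and the log2 fold change of −3.69 had an edgeR adjusted p of 0.0613 and a voom adjusted p of 0.277. The third listed marker, miR-144-3p, was at 0 in all 3 younger cows and at most 0.157 RPM in the older ones and was not tested. The list's share of reads was 0.0531% ± 0.0338 (SD, n = 3) at 2 years and 0.00901% ± 0.00360 (SD, n = 5) at 3 years, with no overlap. The exact two-sided permutation test gave p = 0.0357, the smallest that 3 against 5 cows can give, and 0.107 after adjustment over the 6 measures. This share is mostly miR-486-5p (152 RPM over the pooled libraries, against 10.8 for miR-451-5p). The list was also chosen with earlier results of these data known, so this p is not independent of the miR-486-5p result above. The share was highest in N3, the shallowest library, and without it the difference was −0.0251 percentage points against −0.0441 with all cows. As the ages did not overlap, the sign could not change when a single cow was left out.

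Markers of white blood cells had the other sign: 6 of 6 tested had a positive value (median 0.62, range 0.39 to 1.33), also with total counts. None was called by edgeR or voom. Of all bovine miRBase entries tested, 156 of 195 were positive (median 0.36), and 110 with total counts, so most entries shared this sign. The summed share of the white blood cell markers was 0.444% ± 0.217 (SD, n = 3) and 0.565% ± 0.259 (SD, n = 5), and the ages overlapped (exact permutation test, p = 0.536, adjusted 0.536). The most abundant of these markers, miR-142-5p, found across blood cell lineages, was at 2923, 1493 and 5315 RPM at 2 years and 2281, 7672, 5449, 3142 and 4125 RPM at 3 years. The ages overlapped widely (log2 fold change 0.48 ± 0.46, SE; edgeR adjusted p = 0.477, voom adjusted p = 0.277). The basal and stromal markers miR-143-3p and miR-10b-5p had 1.08 and 0.93 without a call, the 4 others of that list being too low to test. The muscle marker miR-133a-3p did not exceed 1.25 RPM in any cow, and no liver marker was in the table. The part of blood cells in the differences above was not tested.

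The largest positive value among all entries belonged to miR-31-5p, named here after its values were seen. It was at 8.84, 10.2 and 18.6 RPM at 2 years and at 15.97, 321, 9.53, 12.3 and 85.4 RPM at 3 years. N5 and N8 were high and the other 3 older cows lay among the younger ones (log2 fold change 2.92 ± 1.23, SE; edgeR adjusted p = 0.182).

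The 1 entry called by edgeR was bta-chr29_27849_mt-5p, a predicted microRNA with no name in the databases. It was at 79.4, 17.3 and 3.28 RPM in N1, N2 and N3 and at 1.57, 1.69, 0.653, 1.143 and 1.37 RPM in the older cows. The ages did not overlap, but the 2-year-old cows differed more among themselves than the lowest of them did from the older cows, and N3 rested on 3 reads. The log2 fold change was −4.72 ± 0.79 (SE; edgeR adjusted p = 0.0463, voom adjusted p = 0.0455), and edgeR lost the call without any single older cow, with adjusted p-values of 0.0767 to 0.148. Without N1 this entry fell below the count minimum and was not tested. bta-chr11_4139_mt-3p had the same shape at a higher level, with 567, 194 and 53.6 RPM and 23.2, 17.1, 11.2, 2.14 and 3.29 RPM. Its ages were apart too, with a log2 fold change of −4.58 ± 0.85 (SE; edgeR adjusted p = 0.0548, voom adjusted p = 0.0425). In bta-chr9_38695_mt-3p (37.6, 2.65 and 0 RPM against 0 to 0.365 RPM) and bta-chr20_18779_mt-5p (67.3, 1.99 and 0 RPM against 0 to 1.0004 RPM) nearly all reads came from N1, and the 0 in N3 allows a level up to the 3.28 RPM that 3 reads are worth there. Their log2 fold changes of −6.71 and −6.68 rest on N1 (edgeR adjusted p = 0.0613 for both).

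N1 was the highest cow for most of the lower entries. It was the highest of the 8 cows for 52 of the 55 lower entries with an unadjusted p under 0.05 and for 89 of the 118 predicted entries tested, and N6 was the lowest for 44 and 85 of them. An entry was tested when 1 library passed the count minimum, so entries high in N1 alone are among the 118 and raise its number. Among the 33 higher entries N5 was the highest cow in 19 and no 2-year-old cow was the highest in any. The 55 and the 33 entries were both selected by the age difference in these same cows. That the highest cow was mostly of the age with the higher mean therefore follows largely from the selection. Without N1, 366 entries passed the count minimum and neither edgeR nor voom called any in either direction, and 35 had an unadjusted p under 0.05 by edgeR. A separate fit without N1 used no count minimum and was read on the 383 entries tested with all cows. These include entries that passed the minimum only through N1. In that fit the median of the predicted entries was −0.35, with 22 of 118 positive. The median of the annotated entries was 0.22, with 187 of 265 positive as before. Predicted entries took 13.9%, 9.24% and 7.70% of the reads of N1, N2 and N3 and 4.82%, 5.63%, 4.75%, 7.16% and 8.10% in the older cows. N8 lay above N3, and the means of 10.3% ± 3.21 (SD, n = 3) and 6.09% ± 1.48 (SD, n = 5) gave p = 0.0714 in the exact two-sided permutation test, 0.143 after adjustment. The mapped share of cleaned reads was also lower in all younger cows and lowest in N1. Its part in the predicted entries was not tested.

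**Figure D4:**
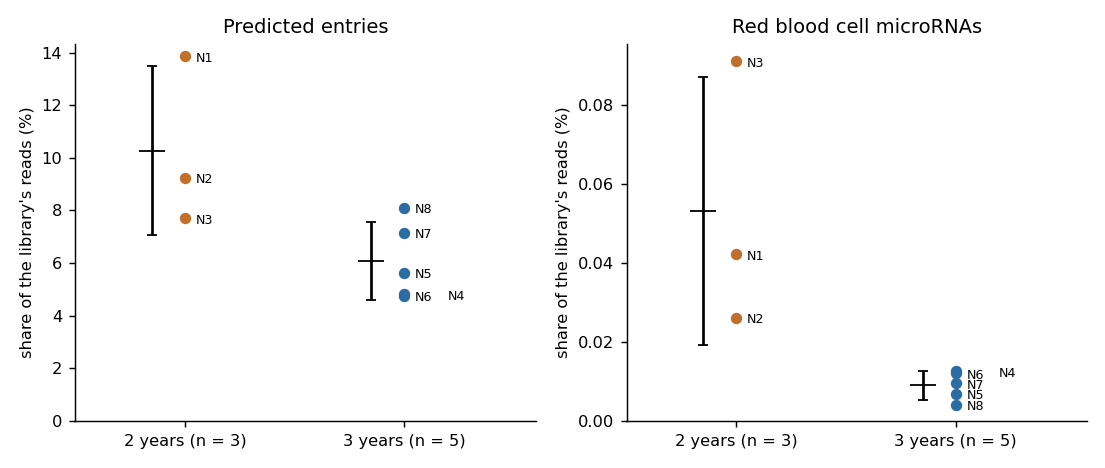
Share of each library's reads (%) on predicted entries (left) and on the red blood cell microRNAs (right) by age, with a labelled point per cow and the mean ± SD beside it. N1 is highest for predicted entries at 13.9% and N3 for red blood cell microRNAs, where the ages do not overlap.

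The 39 predicted entries among those 55 carried 21 different chromosome or scaffold names, with at most 5 on any. Their profiles across the cows were not all distinct. Across the 8 cows, 69 pairs of tested entries had levels correlated above 0.99, which involved 55 entries, 40 of them predicted, and the 55 lower entries came down to 37 distinct profiles. A shared profile does not mean equal levels. The largest difference in reads within a pair in any cow, relative to the larger count, ran from 0.0030 to 0.934. In a pair among the closest, bta-chr23_22727_st-5p had 1960, 1654 and 858 RPM at 2 years, and bta-chr23_22404_mt-3p had 1966, 1657 and 859 RPM. Whether such pairs count the same reads was not tested. The 28 entries called lower by voom held 18 distinct profiles.

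On the first 2 principal components of the log-scaled levels, which held 53.3% and 14.6% of the variance, age took 47.2% of the squared distance between cows (exact one-sided permutation test, p = 0.0179, the smallest possible, and 0.107 adjusted over 6 measures). The cows formed a gradient rather than 2 clusters. On the first component N1 was at 19.9, N2 at 8.74 and N3 at −0.59, and the older cows ran from −0.23 in N7 to −14.7 in N6. Without N1 the share was 36.4% and the exact p 0.190. The number of entries detected did not separate the ages: thinned to the depth of N3, the libraries held 900 ± 47.4 (SD, n = 3) and 880 ± 37.2 (SD, n = 5) entries (exact permutation test, p = 0.536).

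Holstein milk from the same 2 ages was sampled alongside, 4 cows of 2 years and 5 of 3 years, and served to ask whether the age difference was particular to Normande cows. Of 454 entries tested over all 17 libraries, edgeR called 0 for a difference between breeds in the age effect, and 15 had an unadjusted p under 0.05 (3.3%); voom and DESeq2 called 0 as well. The age effect of Normande milk is thus not shown to differ from that of Holstein milk for any entry. Within Holstein alone edgeR called 0 of 449 entries, with 32 at an unadjusted p under 0.05 (7.13%). The age effect had the same sign in both breeds for 322 of the 454 entries, and for 78 of the 88 that had an unadjusted p under 0.05 in Normande milk. Across entries, which are not independent, the log2 fold changes of the breeds had a Spearman correlation of 0.59 (n = 454); no cow was shared, though milk of both breeds was collected together at each age.

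In that fit 114 of 129 predicted entries had a negative value in Normande milk (median −0.64) and 109 in Holstein milk (median −0.68), and 227 and 184 of the 325 annotated entries had a positive one (medians 0.24 and 0.08). Here too an entry was tested when 1 library passed the minimum. Predicted entries took 4.71% to 12.96% of reads in the 2-year-old Holstein cows (median 7.97%) and 4.73% to 9.96% in the 3-year-old ones (median 5.83%), ranges that overlapped.

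Among the named entries, miR-101-3p had a positive value in both breeds (0.91 in Normande and 0.57 in Holstein milk, in the fit over both). So had miR-141-3p (0.82 and 0.08) and miR-29a-3p (0.67 and 0.20), while miR-30a-5p had 0.52 and −0.28. None of them passed the test for a difference between breeds. The entries with the smallest p for a difference included miR-486-5p, at −2.28 in Normande and 0.00 in Holstein milk (difference −2.28 ± 0.79, SE; edgeR adjusted p = 0.991). In Holstein milk it ranged from 48.8 to 314 RPM at 2 years and from 68.0 to 288 RPM at 3 years, and in the same fit the Normande medians were 271 and 82.6 RPM. The others were bta-chr20_18779_mt-5p (difference −6.43) and Rum-bta-02977 (−6.13), both near 0 in Holstein milk, and miR-11978-5p (−1.47) and miR-1307-3p (−0.84), which had positive values of 1.28 and 0.76 in Holstein and of −0.19 and −0.07 in Normande milk. All 5 had an edgeR adjusted p of 0.991.

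**Figure D5:**
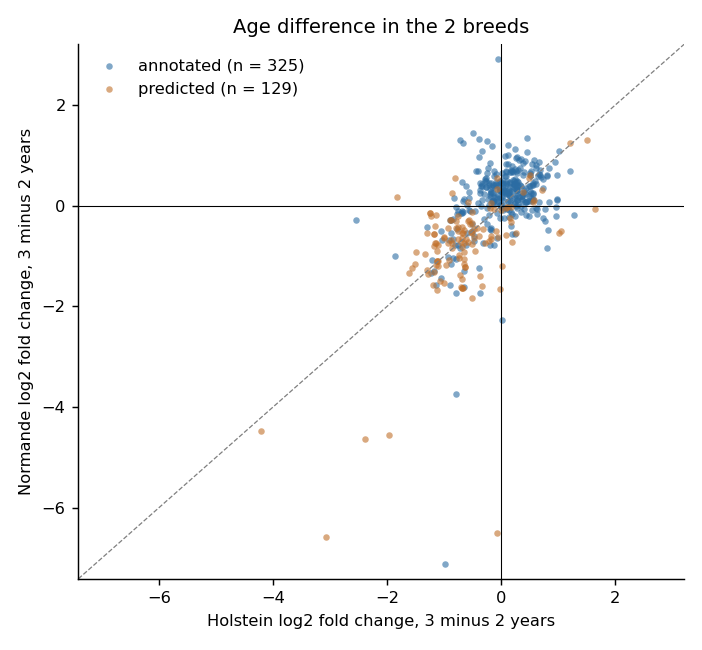
Log2 fold change (3 years minus 2 years) in Normande milk against that in Holstein milk for the 454 entries tested in the fit over all 17 libraries, annotated in blue and predicted in orange, with the diagonal dashed. Most points lie in the quadrants where the breeds have the same sign, 322 of 454, and those far below the diagonal include miR-486-5p and bta-chr20_18779_mt-5p.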

How the data were processed

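Whole milk of 17 cows was sequenced (TruSeq small RNA, 1 library per cow). Per the study's methods, the authors removed adapters with cutadapt, kept reads of microRNA length, mapped them to bosTau8 and identified annotated and predicted microRNAs, and they deposited raw counts per entry, the unit used here. The second deposited sheet was not used. The age of each cow is not in the sample labels and was taken from the study's sequencing table; the lane of each library is not given in the sources used here. Within a group no 2 libraries agreed within sampling noise.

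Entries that passed 236 normalized counts (TMM) in at least 1 library were analysed with edgeR 4.0.16 (R 4.3.3; quasi-likelihood F test, age as the only term, 8 Normande libraries, Benjamini-Hochberg). The SE is the log2 fold change divided by the root of F. The age by breed term was fitted over 17 libraries (minimum 168) and Holstein alone with a minimum of 119. limma 3.58.1 (voom), DESeq2 1.42.0, other scalings and filters, and leaving out each cow were alternatives. Single measures were compared by exact permutation over 56 splits, and p adjusted over the 6. RPM in the text is TMM-normalized; summed list shares are of all reads. The scripts were tested on simulated data. Floors (3 reads) cover counting error only, whereas the SE and SD include the spread between cows.

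Named with values were the 5 entries with the smallest p in each direction, the 10 most abundant, the called or most abundant member of each list, and the 5 smallest p for the breed difference. Other entries given with values (further members of these lists and seeds, hairpin arms, 1 pair of near-identical entries and miR-31-5p) fall outside that rule and were picked after their values were seen. The members and lists were chosen with earlier results of these data known. Gene names and neighbours came from RefSeq (ARS-UCD2.0; 191 of 195 bovine miRBase names matched); files used another build, so no coordinates are given.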

Additional observations from a re-analysis of the deposited data

Results flagged for a closer look

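In 1 of 35 groups of values checked, a single cow stood far from the others: miR-33b-5p in the 3-year-old cow N5, at 66.1 RPM, with the other 4 cows between 24.4 and 36.0 RPM. Chance alone would mark about 1 in 20 such groups.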

How the results depend on the processing

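The count of entries called depended on the tool and on single cows. Against 0 higher and 1 lower with edgeR, voom gave 11 and 28, voom with quality weights 12 and 28, DESeq2 12 and 35, no filter 7 and 54, and edgeR with robust estimation 0 and 0. The lower entries numbered 3 with total counts and 3 with TMM factors from annotated entries, 2 with filterByExpr and 7 in the fit over all 17 libraries. Leaving out 1 cow gave 0 to 2 higher and 0 to 48 lower with edgeR (48 without N3, 7 without N2, 0 without N1 or any 3-year-old cow), and 0 to 3 higher and 0 to 46 lower with voom (46 without N3, 2 without N2, 0 without any other cow; the voom fits without a 3-year-old cow were added after seeing the data). The difference in the red blood cell share ran from −0.0576 to −0.0251 percentage points with 1 cow left out, where the smallest possible p is 0.0952 without a 2-year-old and 0.0571 without a 3-year-old cow. The age share of squared distance was 36.4% without N1, 43.6% without N5 and 48.5% without N8, its range with 1 cow left out being 36.4% to 61.4%. For the breed difference no filter gave 6 calls, and a fit with the replicate block gave 0, as did every other setting; the numbers are shared between the breeds only. No paired analysis was possible because the Normande age groups share no replicate numbers. No named entry passed a threshold with the opposite sign in any setting. N3, the shallowest library, limits what can be said of entries below 3.28 RPM.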
